A study of Homo sapiens with 24 samples.

Results

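The genes described are 10 regulators and markers of the epithelial-mesenchymal transition: the transcription factors SNAI1, SNAI2, TWIST1, TWIST2, ZEB1, ZEB2 and PRRX1, and the mesenchymal products VIM, FN1 and S100A4. They were taken by name from the probes whose RefSeq transcript belongs to them, 15 probes in all, out of 20503 genes with a symbol on the array. Expression was measured in HepaRG, a human hepatocellular carcinoma line with properties of liver progenitors, on 24 one-colour microarrays with 3 independent cultures in each of 8 groups. Untransfected cells were left untreated or given 200 ng/ml mouse Wnt3a for 72 h. Cells transfected with 80 pmol of control siRNA, and cells transfected with 80 pmol of an siRNA against β-catenin, were each kept without or with the same Wnt3a treatment. Untransfected cells were also given 300 ng/ml mouse FZD8_CRD, a soluble Wnt-binding receptor domain, without or with Wnt3a. All values are log2 signals relative to the 75th percentile of the array, so that 0 is the signal at that percentile, and differences are on the log2 scale.

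In an epithelial-mesenchymal transition, cells loosen their junctions and take up a migratory, matrix-producing state. Snail proteins (SNAI1, SNAI2) and ZEB proteins (ZEB1, ZEB2) are zinc-finger repressors that bind E-box motifs in epithelial genes such as CDH1. TWIST1 and TWIST2 are basic helix-loop-helix factors, and PRRX1 is a homeobox factor. VIM encodes the intermediate filament vimentin, FN1 the matrix glycoprotein fibronectin, and S100A4 a small calcium-binding protein. Canonical Wnt signals act through β-catenin, which joins TCF/LEF factors at target genes.

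CTNNB1, the siRNA target, was measured first. Its signals were 3.35, 3.37 and 3.51 after control siRNA and 0.26, 0.35 and 0.52 after β-catenin siRNA, and with Wnt3a 3.39, 3.62 and 3.67 and 0.33, 0.52 and 0.77. No value of a knockdown group reached one of its control group, and the log2 fold changes were -3.03 (limma adjusted p = 1.2e-09) and -3.02 (limma adjusted p = 7.8e-10). AXIN2, a feedback gene of the pathway, had signals of 0.48, 0.46 and 0.22 in untreated cells and 0.87, 0.66 and 0.74 with Wnt3a, without overlap. Its difference of 0.37 (limma adjusted p = 0.045) was close to the threshold and became -0.027 with scaling to the spike-in probes. The call was lost without untreated replicate 1 (0.41), 2 (0.40) or 3 (0.28) and without Wnt3a replicate 1 (0.31) or 2 (0.41). After control siRNA the Wnt3a difference of AXIN2 was 0.60 (limma adjusted p = 0.0066), a call lost without control siRNA with Wnt3a replicate 2 (0.54) or control siRNA replicate 3 (0.55) and with spike-in scaling (0.76). With Wnt3a, β-catenin siRNA gave an AXIN2 difference of -0.74 (limma adjusted p = 7.9e-05), a call lost only with spike-in scaling (-0.95). Without Wnt3a the difference of 0.11 (limma adjusted p = 0.62) did not pass. With FZD8_CRD the AXIN2 signals were -0.13, -0.04 and -0.47 without and -0.05, -0.06 and -0.13 with Wnt3a, all below those of the untreated cells, and the log2 fold changes against the groups without FZD8_CRD were -0.60 (limma adjusted p = 1.2e-04, -0.47 without FZD8_CRD replicate 3) and -0.84 (limma adjusted p = 6.7e-06, -0.85 without Wnt3a replicate 3).

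All 8 hepatocyte markers were well above background on all 24 arrays, as were 5 of 6 biliary or progenitor markers. The same held for 5 of 7 stellate cell or fibroblast, 4 of 6 endothelial and 3 of 6 blood cell markers. EPCAM was well above background on 1 array, and MS4A1 and HBB on 0. A probe can be above background at a low signal, so these counts give no share of cells, and fewer cells of a type and less RNA per cell cannot be told apart in these bulk samples.

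Some arrays stood apart from their groups. Each array was set against the mean of every group over the arrays of the other slides, across 24609 genes, and 21 of 24 arrays correlated best with their own group. The array labelled FZD8_CRD replicate 3 correlated at 0.33 with its own group and at 0.78 with FZD8_CRD with Wnt3a. The array labelled Wnt3a replicate 3 correlated at 0.41 with its own group and at 0.72 with untreated cells. Wnt3a replicate 2 was nearly tied, at 0.37 with its own group and 0.39 with control siRNA with Wnt3a. These correlations are across genes, which are not independent replicates. The labels were kept, and values without the first 2 of these arrays, a choice made after the data were seen, are given beside the called member differences and the list counts that use them. Each of these 2 arrays was picked for resembling the other group of its Wnt3a pair. Leaving it out therefore tends to enlarge the Wnt3a difference of that pair, and a smaller p-value obtained so is not independent support. The 8 arrays of a replicate number shared a slide, and each group held the same position on all 3 slides, with the 4 Wnt3a groups in the second row, so that position and treatment cannot be told apart.

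**Figure D1:**
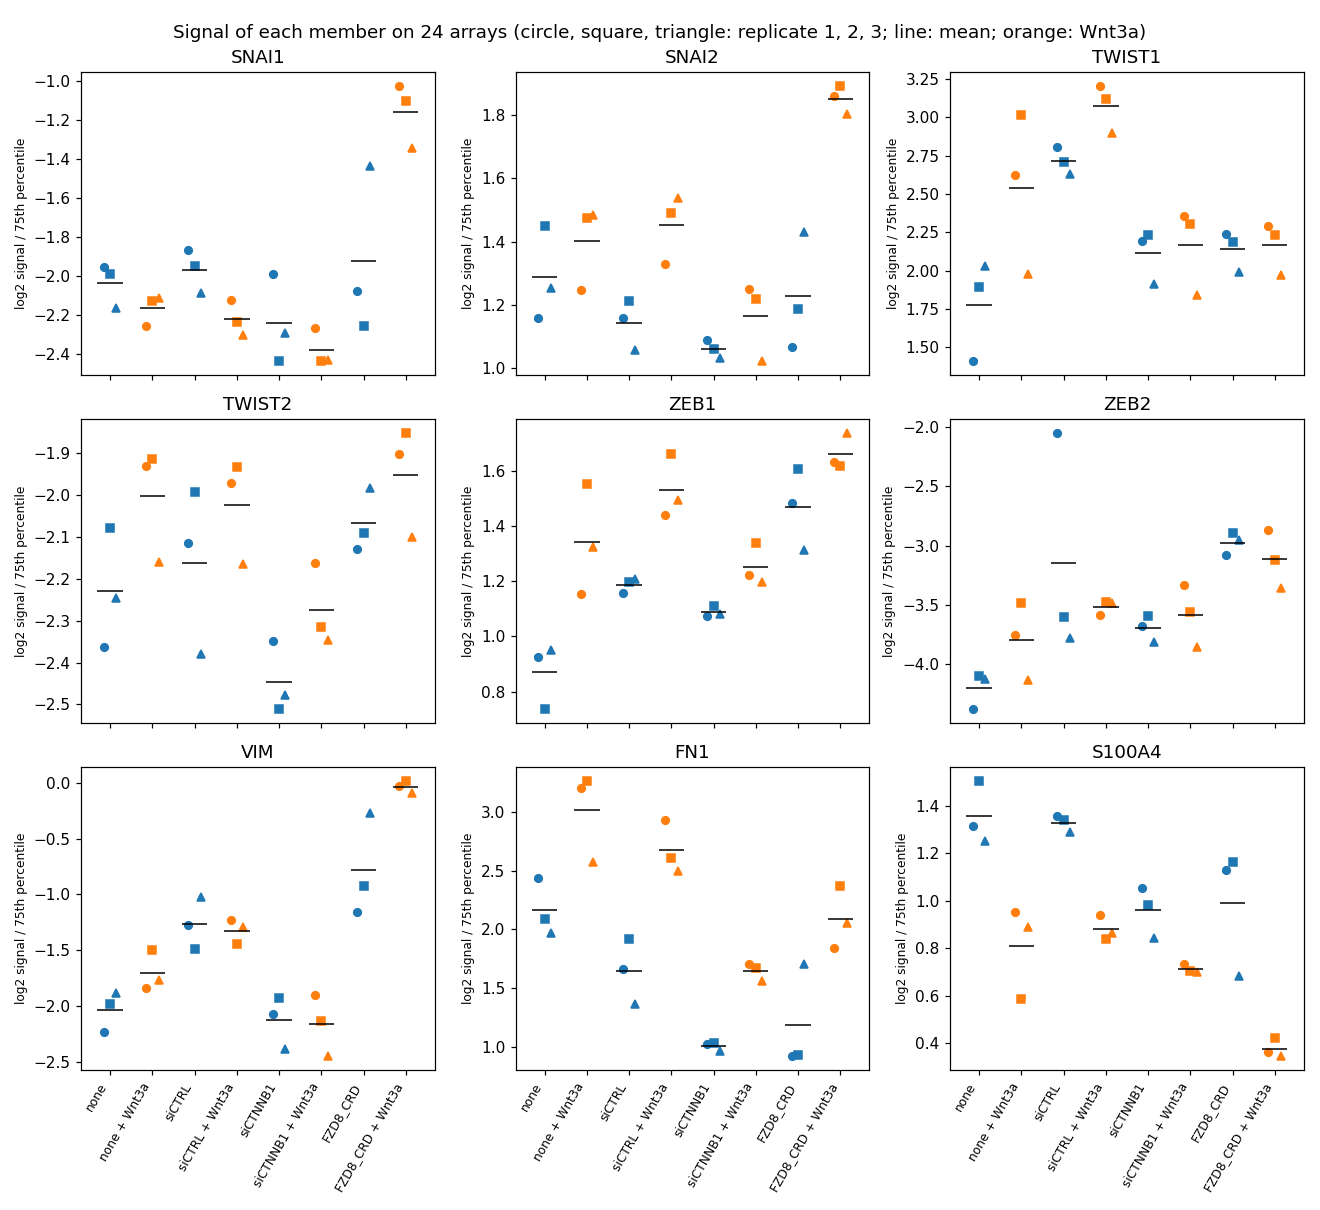
Signal of the 9 tested members on each of the 24 arrays, as log2 of the signal relative to the 75th percentile of the array, by group. Symbols mark the replicate (slide), lines the group mean and orange the Wnt3a groups; the VIM signals in both FZD8_CRD groups lie above all those of untreated cells.

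PRRX1 was not well above background on any of the 24 arrays and was not tested. The tested probes of the other 9 members were well above background on all 24 arrays, so that no member passed the filter on dim probes through a single group. For TWIST1, TWIST2, ZEB1 and ZEB2 the brightest of several probes was tested.

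Wnt3a changed 4 of 9 members in untransfected cells (3 higher and 1 lower), where limma called 5.6% of 24648 genes, and 2 of 9 after control siRNA (1 higher and 1 lower), beside 2.11%, or 3 with the slide as a block, where ZEB1 also passed among 1073 called genes in place of 520. With FZD8_CRD it changed 5 of 9 (4 higher and 1 lower), beside 8.29%. The calls among all genes moved far when single arrays were left out, from 179 without Wnt3a replicate 2 to 3189 without Wnt3a replicate 3 in untransfected cells, and from 348 without FZD8_CRD replicate 1 to 4916 without FZD8_CRD replicate 3 with FZD8_CRD, beside 1381 and 2044 on all arrays. With only the arrays of the compared groups in the fit, limma called 0 of 9 members in untransfected cells and 0 with FZD8_CRD, with 4 and 5 at an unadjusted p under 0.05, beside 2 and 0 of all genes. After β-catenin siRNA limma called 0 of 9, with 2 members at an unadjusted p under 0.05, beside 0.0406% of all genes. β-catenin siRNA changed 2 of 9 members without Wnt3a, beside 10.6% of all genes, and 3 of 9 with it, beside 10.6%, all of them lower. With the slide as a block these counts were 4, with TWIST1 and FN1 added, and 5, with SNAI2 and ZEB1 added, while the calls among all genes went from 2604 to 4095 and from 2608 to 3846.

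Cells given control siRNA were compared with untransfected cells, so that the siRNA and the transfection itself cannot be told apart. Control siRNA changed 4 of 9 members without Wnt3a, all higher, beside 22.3% of all genes. With Wnt3a limma called 0 of 9, with 1 at an unadjusted p under 0.05, beside 9.04% of all genes, and 1, TWIST1, with the slide as a block, among 3754 genes. Without Wnt3a replicate 2 it called TWIST1 (0.78) and ZEB1 (0.29), among 4045 genes. FZD8_CRD changed 5 of 9 without Wnt3a (3 higher and 2 lower), beside 41.9% of all genes, and 6 of 9 with it (4 higher and 2 lower), beside 37.2%, so these counts stand against a high background. Without both arrays that stood apart they were 4 and 7, among 10485 and 9634 genes. The Wnt3a counts then were 4 in untransfected cells, among 4312 genes, and 5 with FZD8_CRD, among 5347, so that the same counts of members stood against more calls among all genes. The tests of a difference in Wnt3a response between the siRNAs called 0 of 9 members by limma, 0 at an unadjusted p under 0.05, beside 0.0162% of all genes. For FZD8_CRD the same test called 0 of 9, 4 at an unadjusted p under 0.05, beside 0.073%. Without FZD8_CRD replicate 3 it called 2 members, SNAI1 and SNAI2, among 1911 genes, and without Wnt3a replicate 3 as well it called SNAI1, SNAI2 and TWIST1 among 2427.

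These counts depended on the scaling. With scaling to the spike-in probes in place of the 75th percentile, limma called 0 members for Wnt3a in untransfected cells (1 at an unadjusted p under 0.05), 0 for Wnt3a with FZD8_CRD (5) and 0 for β-catenin siRNA without Wnt3a (2), beside 281, 235 and 172 of all genes. For Wnt3a after control siRNA it called 1, higher, beside 56 of all genes, and for β-catenin siRNA with Wnt3a 3, all lower, beside 661. For FZD8_CRD it called 3 (1 higher and 2 lower) without Wnt3a, beside 7328 of all genes, and 3 (2 higher and 1 lower) with it, beside 2295. For control siRNA without Wnt3a the 4 higher calls gave way to 1 lower call, FN1 (-0.80), beside 1609 of all genes. This scaling moved the median log2 fold change of all genes by -0.39 (Wnt3a without transfection), 0.16 (Wnt3a after control siRNA), -0.13 (Wnt3a after β-catenin siRNA), -0.20 (β-catenin siRNA with Wnt3a), -0.28 (control siRNA without Wnt3a), 0.27 (control siRNA with Wnt3a), -0.38 (FZD8_CRD without Wnt3a), -0.29 (the difference between siRNAs) and 0.30 (the difference with FZD8_CRD). The member values below are relative to the 75th percentile.

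SNAI1, a repressor of CDH1, had its highest signals in cells given FZD8_CRD and Wnt3a together, -1.03, -1.11 and -1.35. With FZD8_CRD alone its signals were -2.08, -2.26 and -1.44, and with Wnt3a alone -2.26, -2.13 and -2.11. The group with both agents overlapped neither of these, and the third FZD8_CRD array lay nearest to it. The rise with Wnt3a in the presence of FZD8_CRD was 0.76 (limma adjusted p = 0.0069, 1.01 without FZD8_CRD replicate 3), with differences within the 3 slides of 1.05, 1.15 and 0.09. That call was lost without FZD8_CRD replicate 1 (0.69) or FZD8_CRD replicate 2 (0.60). Against Wnt3a alone, the group with both agents was higher by 1.01 (limma adjusted p = 7.5e-05, 1.03 without Wnt3a replicate 3), a call kept in all alternatives run. In untreated cells the signals were -1.95, -1.99 and -2.17, and in the 4 siRNA groups they ran from -2.44 to -1.87. The Wnt3a difference without FZD8_CRD was -0.13 (limma adjusted p = 0.76). The difference between the Wnt3a responses with and without FZD8_CRD was 0.89 (limma adjusted p = 0.11). Without FZD8_CRD replicate 3 it was 1.14 (limma adjusted p = 5.1e-04), and without untreated replicate 3 0.96 (limma adjusted p = 0.045). FZD8_CRD replicate 3 was picked for its likeness to the group with both agents, so the value without it is not independent support.

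SNAI2, the second Snail repressor, was also highest with both agents. Its signals were 1.86, 1.89 and 1.80 with FZD8_CRD and Wnt3a, 1.07, 1.19 and 1.43 with FZD8_CRD alone and 1.25, 1.48 and 1.48 with Wnt3a alone. All 3 values with both agents were above every other SNAI2 value of the 24 arrays. The Wnt3a rise with FZD8_CRD was 0.63 (limma adjusted p = 0.0011, 0.73 without FZD8_CRD replicate 3), with differences of 0.80, 0.71 and 0.37 within the slides. That call was lost in 4 of 19 alternatives. FZD8_CRD with Wnt3a differed from Wnt3a alone by 0.45 (limma adjusted p = 0.0011, 0.49 without Wnt3a replicate 3), a call lost in 2 of 19 alternatives. The difference between the Wnt3a responses with and without FZD8_CRD was 0.51 (limma adjusted p = 0.13), and 0.61 (limma adjusted p = 0.0057) without FZD8_CRD replicate 3. After control siRNA the signals were 1.16, 1.21 and 1.06 without and 1.33, 1.49 and 1.54 with Wnt3a, groups that did not overlap, and the difference of 0.31 (limma adjusted p = 0.1) did not pass.

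TWIST1 was high in the control siRNA groups. Its signals were 1.41, 1.90 and 2.03 in untreated cells, 2.81, 2.71 and 2.63 after control siRNA and 2.20, 2.23 and 1.91 after β-catenin siRNA. With Wnt3a they were 2.62, 3.01 and 1.98 in untransfected cells, 3.21, 3.12 and 2.90 after control siRNA and 2.36, 2.31 and 1.84 after β-catenin siRNA. Both control siRNA groups lay above both β-catenin siRNA groups without overlap. With Wnt3a, β-catenin siRNA gave a log2 fold change of -0.91 (limma adjusted p = 0.005), with differences of -0.85, -0.81 and -1.06 within the slides. Without Wnt3a the difference of -0.60 (limma adjusted p = 0.063) did not pass, but did with the slide as a block (limma adjusted p = 0.021) and with only the compared groups (limma adjusted p = 0.011). Control siRNA raised TWIST1 against untransfected cells by 0.94 (limma adjusted p = 0.0023).

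The TWIST1 rise with Wnt3a in untransfected cells was 0.76 (limma adjusted p = 0.033, 1.04 without Wnt3a replicate 3). Within the slides the differences were 1.21, 1.12 and -0.05, so that replicate 3, one of the arrays that stood apart, gave no rise on the tested probe. The TWIST1 call was lost without untreated replicate 1 (0.58), Wnt3a replicate 1 (0.72), untreated replicate 2 (0.82) or Wnt3a replicate 2 (0.52). Spike-in scaling also ended it (0.37). In the FZD8_CRD groups TWIST1 ran from 1.97 to 2.29, and with Wnt3a the difference from Wnt3a alone was -0.37 (limma adjusted p = 0.16), or -0.65 (limma adjusted p = 0.0081) without Wnt3a replicate 3. The other TWIST1 probe, well above background on all 24 arrays, had signals from -5.19 to -1.65, with replicate 3 the highest in every group. It gave -5.19, -4.94 and -2.92 in untreated cells and -3.59, -3.48 and -2.40 with Wnt3a, higher on each of the 3 slides. TWIST2, a close relative, was called by limma in 0 of 12 comparisons, with 2 at an unadjusted p under 0.05. Its group means ran from -2.45 after β-catenin siRNA to -1.95 with FZD8_CRD and Wnt3a.

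ZEB1, a repressor that the miR-200 family holds down in epithelial cells, was lowest in untreated cells on the tested probe, at 0.93, 0.74 and 0.95. With Wnt3a it was 1.15, 1.55 and 1.32, and with FZD8_CRD 1.48, 1.61 and 1.31. Neither group overlapped the untreated cells, whose arrays both comparisons share. The rise was 0.47 (limma adjusted p = 0.008, 0.48 without Wnt3a replicate 3) with Wnt3a and 0.60 (limma adjusted p = 3.9e-05, 0.67 without FZD8_CRD replicate 3) with FZD8_CRD. The Wnt3a call was lost in 7 of 19 alternatives, among them without Wnt3a replicate 2 (0.37) and with spike-in scaling (0.080). The FZD8_CRD call was lost with spike-in scaling (0.21). With FZD8_CRD and Wnt3a the signals were 1.63, 1.62 and 1.74, a difference from Wnt3a alone of 0.32 (limma adjusted p = 0.01, 0.31 without Wnt3a replicate 3) that became -0.055 when the probes of the gene were averaged. This difference was lost without Wnt3a replicate 1 (0.22). With only the compared groups that call was also lost (limma adjusted p = 0.077). The other ZEB1 probe gave -0.50, -0.29 and -0.54 in untreated cells, 0.12, 0.38 and -0.46 with Wnt3a, 0.02, -0.26 and -0.60 with FZD8_CRD, -0.31, -0.10 and -0.83 with both agents and -0.31, -0.39 and -0.54 after control siRNA. On it each of these groups overlapped the untreated cells, the group with both agents lay below Wnt3a alone on each slide, and the lowest group means were those after β-catenin siRNA. In the 4 siRNA groups the tested probe ran from 1.07 to 1.66, and control siRNA without Wnt3a was higher than untransfected cells by 0.32 (limma adjusted p = 0.018). The control siRNA call was lost without untreated replicate 2 (0.25), control siRNA replicate 2 (0.31) or control siRNA replicate 3 (0.31). It was also lost with spike-in scaling (0.036). After control siRNA the Wnt3a difference of 0.34 (limma adjusted p = 0.059) did not pass, but did with the slide as a block (limma adjusted p = 0.032), with quantile normalization (limma adjusted p = 0.033) and with only the compared groups (limma adjusted p = 0.043).

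ZEB2, the second ZEB repressor, had signals from -4.38 to -2.05 over the 24 arrays. They were -4.38, -4.10 and -4.13 in untreated cells and -3.08, -2.90 and -2.95 with FZD8_CRD, groups that did not overlap. The rise with FZD8_CRD was 1.23 (limma adjusted p = 0.0024, 1.22 without FZD8_CRD replicate 3), with differences of 1.30, 1.20 and 1.18 within the slides. It was 0.62 with normexp background correction, and the call was lost with spike-in scaling (0.84). After control siRNA the values were -2.05, -3.60 and -3.78, of which replicate 1 was the highest ZEB2 value of all arrays. The rise against untransfected cells was 1.06 (limma adjusted p = 0.014). It was lost without untreated replicate 1 (0.97) or control siRNA replicate 1 (0.51). With only the compared groups it was also lost (limma adjusted p = 0.17). Another probe of the same transcript gave -4.44, -4.07 and -4.08 in untreated cells, -3.95, -3.76 and -3.48 with FZD8_CRD and -4.25, -3.95 and -4.22 after control siRNA. On this probe the FZD8_CRD group also lay above the untreated cells, by less, and the control siRNA group overlapped them. A probe of another ZEB2 transcript gave -6.13, -5.64 and -5.59 in untreated cells, -4.46, -4.47 and -4.43 with FZD8_CRD and -5.18, -5.14 and -4.98 after control siRNA, with both groups above the untreated cells, of which replicate 1 was not well above background. The other ZEB2 differences did not pass: with Wnt3a present, FZD8_CRD gave 0.68 (limma adjusted p = 0.081, 0.51 without Wnt3a replicate 3) and control siRNA 0.28 (limma adjusted p = 0.67), and the difference between the Wnt3a responses with and without FZD8_CRD was -0.55 (limma adjusted p = 0.68).

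VIM had the largest fold change of the tested members over the 12 comparisons. Its signals were -2.23, -1.99 and -1.88 in untreated cells, -1.84, -1.49 and -1.77 with Wnt3a, -1.16, -0.92 and -0.27 with FZD8_CRD and -0.03, 0.02 and -0.10 with both agents. Each FZD8_CRD group lay above both groups without it. FZD8_CRD raised VIM by 1.25 (limma adjusted p = 3.2e-05, 0.99 without FZD8_CRD replicate 3) without Wnt3a and by 1.67 (limma adjusted p = 2.9e-06, 1.63 without Wnt3a replicate 3) with it, and both calls were kept in all alternatives run. Within the slides the differences were 1.07, 1.06 and 1.61 without Wnt3a and 1.81, 1.51 and 1.67 with it. Wnt3a added 0.75 (limma adjusted p = 0.02, 1.01 without FZD8_CRD replicate 3) in the presence of FZD8_CRD, with differences of 1.13, 0.94 and 0.17 within the slides. The VIM call was lost without FZD8_CRD replicate 1 (0.56), FZD8_CRD with Wnt3a replicate 1 (0.75), FZD8_CRD replicate 2 (0.68) or FZD8_CRD with Wnt3a replicate 2 (0.72). Without FZD8_CRD the Wnt3a difference was 0.33 (limma adjusted p = 0.34), and the difference between the responses was 0.42 (limma adjusted p = 0.59), or 0.67 (limma adjusted p = 0.085) without FZD8_CRD replicate 3.

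VIM was also lower after β-catenin siRNA than after control siRNA. Its signals were -1.27, -1.49 and -1.02 after control siRNA and -2.07, -1.93 and -2.39 after β-catenin siRNA, and with Wnt3a -1.23, -1.45 and -1.29 and -1.90, -2.13 and -2.45. No knockdown value reached a control value. The log2 fold changes were -0.86 (limma adjusted p = 0.0055) without Wnt3a and -0.84 (limma adjusted p = 0.0059) with it. Without Wnt3a the mean after β-catenin siRNA, -2.13, was near that of untransfected cells, -2.03. With Wnt3a these means were -2.16 and -1.70. β-catenin siRNA was not tested against untransfected cells. Control siRNA raised VIM against untransfected cells by 0.77 (limma adjusted p = 0.006), and with Wnt3a the difference was 0.38 (limma adjusted p = 0.25). The call without Wnt3a was lost with spike-in scaling (0.49).

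FN1, a matrix protein, was higher with Wnt3a. Its signals in untransfected cells were 2.44, 2.09 and 1.97 without and 3.20, 3.27 and 2.57 with Wnt3a. After control siRNA they were 1.66, 1.92 and 1.37 and 2.93, 2.61 and 2.49, and with FZD8_CRD 0.92, 0.93 and 1.70 and 1.84, 2.37 and 2.05. In each of these pairs the Wnt3a group lay wholly above its own control. The rise in untransfected cells was 0.85 (limma adjusted p = 0.023, 1.07 without Wnt3a replicate 3). It was lost without Wnt3a replicate 1 (0.75), untreated replicate 2 (0.81) or Wnt3a replicate 2 (0.72). With spike-in scaling the rise was 0.45, and its call was lost. After control siRNA it was 1.03 (limma adjusted p = 0.015). This rise was lost without control siRNA replicate 1 (1.04), control siRNA with Wnt3a replicate 1 (0.90), control siRNA with Wnt3a replicate 2 (1.06) or control siRNA replicate 3 (0.89). With FZD8_CRD it was 0.90 (limma adjusted p = 0.012, 1.16 without FZD8_CRD replicate 3). Here the call was lost without FZD8_CRD replicate 1 (0.77), FZD8_CRD replicate 2 (0.77) or FZD8_CRD with Wnt3a replicate 2 (0.76).

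After β-catenin siRNA the FN1 signals were 1.03, 1.04 and 0.96 without and 1.71, 1.67 and 1.56 with Wnt3a. These groups did not overlap either, but the difference of 0.64 (limma adjusted p = 0.29) did not pass, and the difference between the responses after the siRNAs was -0.39 (limma adjusted p = 1). With Wnt3a, β-catenin siRNA lowered FN1 against control siRNA, at -1.03 (limma adjusted p = 0.0023). Without Wnt3a the groups did not overlap, but the difference of -0.64 (limma adjusted p = 0.054) did not pass. It did with the slide as a block (limma adjusted p = 0.042) and without control siRNA replicate 3 (-0.78), among 6 of 18 alternatives. FZD8_CRD also lowered FN1, at -0.98 (limma adjusted p = 8.1e-04, -1.24 without FZD8_CRD replicate 3) without Wnt3a and -0.93 (limma adjusted p = 0.0016, -1.15 without Wnt3a replicate 3) with it, opposite in sign to VIM.

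S100A4, a calcium-binding protein, was lower with Wnt3a. Its signals in untransfected cells were 1.32, 1.51 and 1.25 without and 0.95, 0.59 and 0.89 with Wnt3a. With FZD8_CRD they were 1.13, 1.16 and 0.68 without and 0.36, 0.42 and 0.35 with Wnt3a, and in both pairs the groups did not overlap. The log2 fold change was -0.55 (limma adjusted p = 0.0083, -0.59 without Wnt3a replicate 3) in untransfected cells and -0.61 (limma adjusted p = 0.0023, -0.77 without FZD8_CRD replicate 3) with FZD8_CRD. In untransfected cells it was lost without untreated replicate 2 (-0.47) or Wnt3a replicate 2 (-0.43). With spike-in scaling it was larger there (-0.94), but the call was also lost. After control siRNA the signals were 1.36, 1.34 and 1.29 without and 0.94, 0.84 and 0.86 with Wnt3a, a difference of -0.45 (limma adjusted p = 0.036) that leaving out any 1 array of the pair ended. That difference was lost without control siRNA replicate 1 (-0.44), control siRNA with Wnt3a replicate 1 (-0.48), control siRNA replicate 2 (-0.44), control siRNA with Wnt3a replicate 2 (-0.43), control siRNA replicate 3 (-0.47) or control siRNA with Wnt3a replicate 3 (-0.44). With spike-in scaling it was -0.29, and the call was also lost.

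S100A4 was also lower with FZD8_CRD, at -0.37 (limma adjusted p = 0.011, -0.21 without FZD8_CRD replicate 3) without Wnt3a and -0.43 (limma adjusted p = 0.0038, -0.39 without Wnt3a replicate 3) with it. The call without Wnt3a was lost without untreated replicate 2 (-0.29) or FZD8_CRD replicate 3 (-0.21). It was also lost with only the compared groups (limma adjusted p = 0.12). With spike-in scaling the difference without Wnt3a was -0.75. After β-catenin siRNA its signals were 1.05, 0.98 and 0.84, below those after control siRNA, and the log2 fold change was -0.37 (limma adjusted p = 0.035). This call was lost without control siRNA replicate 1 (-0.35), control siRNA replicate 2 (-0.36), β-catenin siRNA replicate 2 (-0.38), control siRNA replicate 3 (-0.39) or β-catenin siRNA replicate 3 (-0.31). With Wnt3a the β-catenin siRNA difference of -0.17 (limma adjusted p = 0.44) did not pass, nor did the Wnt3a difference after β-catenin siRNA, -0.25 (limma adjusted p = 0.43), or the difference between the Wnt3a responses after the siRNAs, 0.20 (limma adjusted p = 1).

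**Figure D2:**
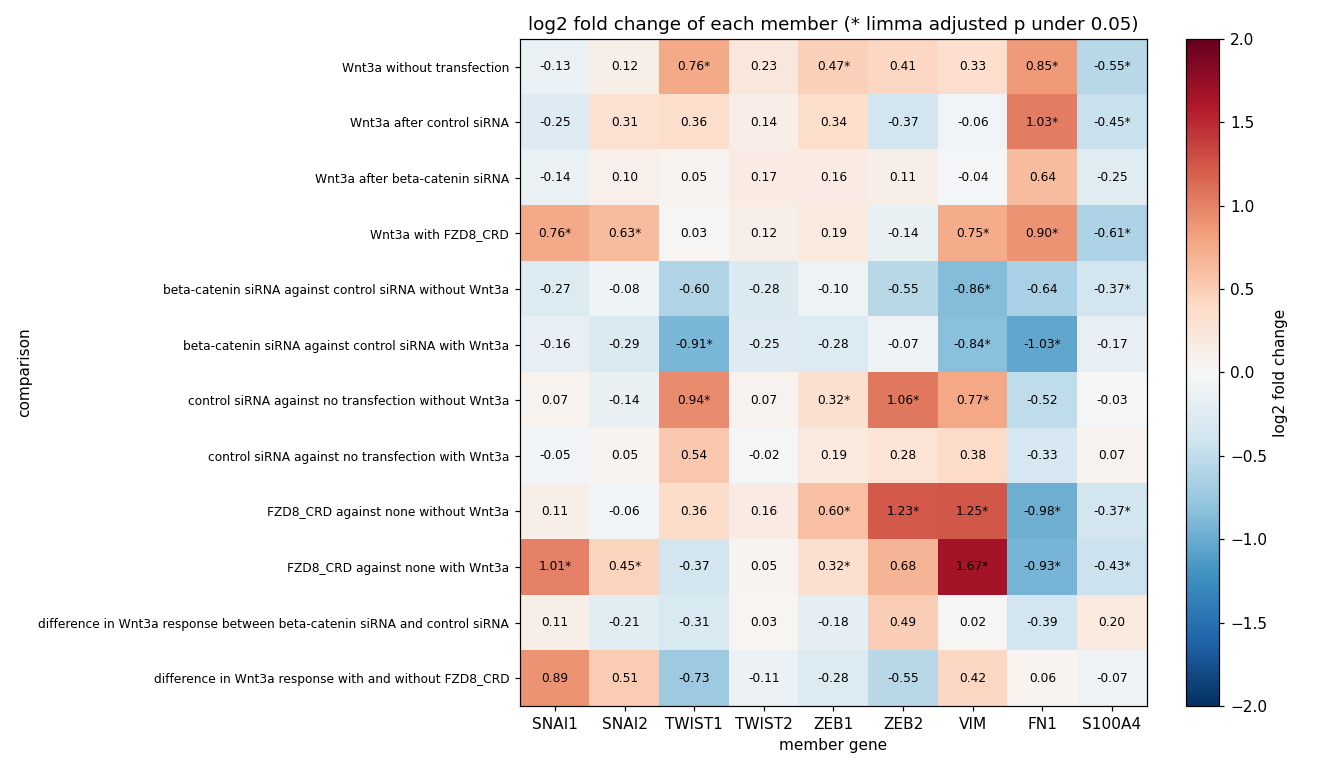
log2 fold change of the 9 tested members (columns) in the 12 comparisons (rows), with red for higher, blue for lower and a star for a limma adjusted p under 0.05. VIM and FN1 have opposite signs in both FZD8_CRD comparisons, 1.25 and -0.98 without Wnt3a.

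**Figure D3:**
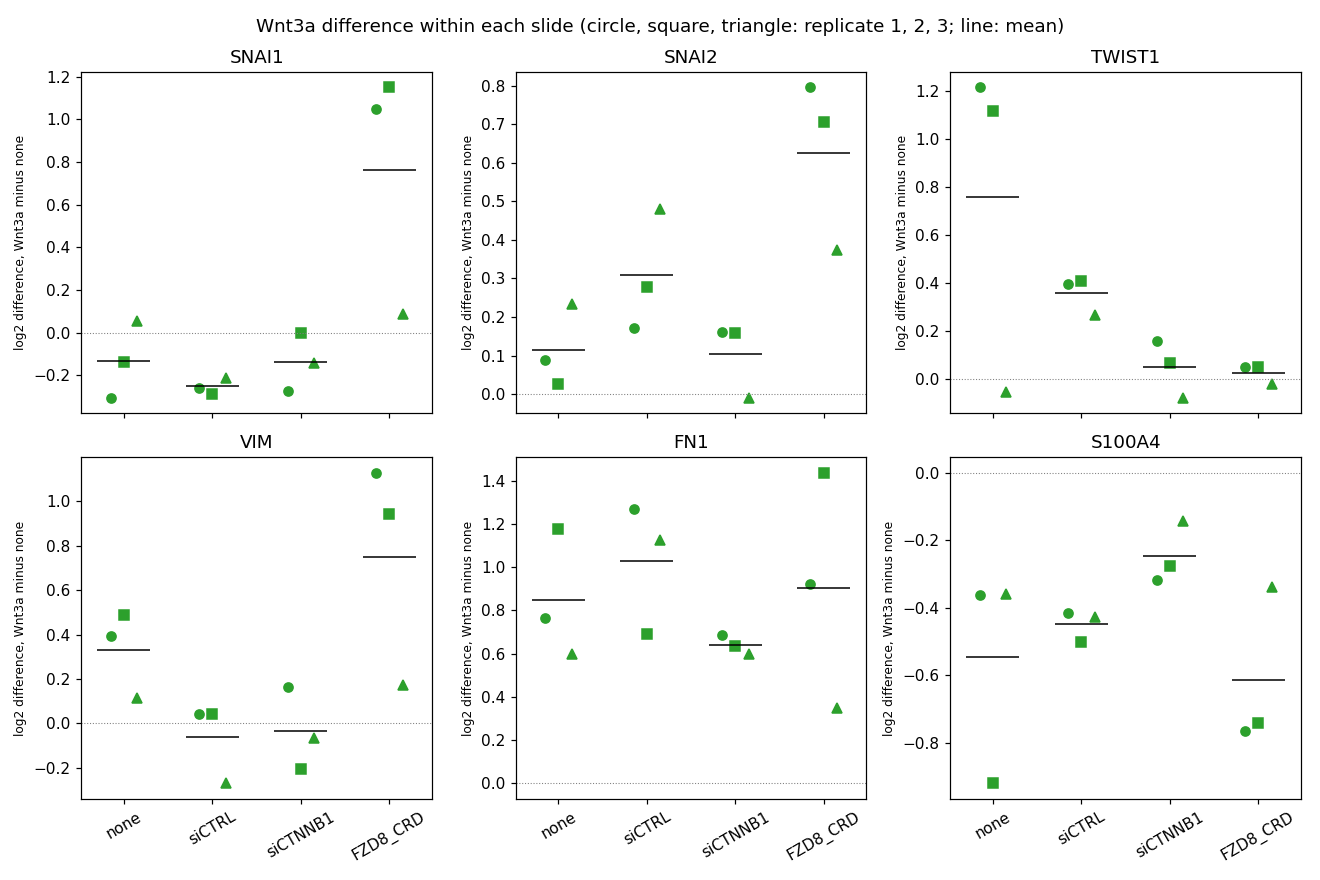
Difference between the Wnt3a array and its control on the same slide, on the log2 scale, for 6 members in 4 backgrounds. Symbols mark the replicate and lines the mean; for SNAI1 with FZD8_CRD, replicates 1 and 2 lie at 1.05 and 1.15 and replicate 3 at 0.09.

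Lists of related genes were counted in the same fits. With FZD8_CRD alone, where limma called 41.9% of all genes, 14 of 24 tested epithelial junction and keratin genes fell and 4 rose, with a median of -0.60 beside -0.09 for all genes, and without FZD8_CRD replicate 3 these counts were 11 and 3. CLDN1, a tight junction claudin, had a log2 fold change of -1.29 and PKP3, a desmosome plakophilin, 1.20. CDH1, the epithelial cadherin, was at -1.08, and its call was lost without FZD8_CRD replicate 3 (-0.58), untreated replicate 1 (-0.70) or untreated replicate 2 (-1.11). Of 13 tested regulators of the epithelial state 4 fell and 1 rose, and 6 and 1 without FZD8_CRD replicate 3, with HNF4A at -1.70 and FOXA1 at -1.54, factors of the hepatocyte programme. Of 17 other mesenchymal genes 6 rose and 2 fell, but 4 and 4 without FZD8_CRD replicate 3, with NT5E, an ecto-nucleotidase, at 1.07 and PDGFRA, a growth factor receptor, at -1.69. Of 16 other transcription factors of the transition 6 rose and 1 fell, and 4 and 0 without FZD8_CRD replicate 3 or without untreated replicate 1. The shares called of the regulators, mesenchymal genes and other transcription factors were near that of all genes. With spike-in scaling 14 junction and keratin genes, 5 regulators, 4 mesenchymal genes and 1 other transcription factor were called, all lower.

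With FZD8_CRD and Wnt3a against Wnt3a alone, 9 junction and keratin genes were lower and 3 higher, beside 37.2% of all genes called, with a median of -0.29 beside -0.08 for all genes. Without Wnt3a replicate 3 these counts were 6 and 2, and with spike-in scaling 7 and 0. Of the mesenchymal genes 9 were higher and 1 lower in that comparison, with a median of 0.25, and 8 and 1 without Wnt3a replicate 3 or 4 and 1 with spike-in scaling. Of the regulators 4 were lower and 2 higher, and of the other transcription factors 1 and 2. These were 4 and 1 regulators and 1 and 2 other transcription factors without Wnt3a replicate 3. With spike-in scaling limma called 4 regulators, all lower, and 0 other transcription factors, 1 at an unadjusted p under 0.05. Control siRNA without Wnt3a also lowered 11 of the junction and keratin genes and raised 3, beside 22.3% of all genes called, with a median of -0.42 beside -0.03. Those counts were 6 and 2 without untreated replicate 1, 7 and 3 without untreated replicate 2, 7 and 2 without control siRNA replicate 1, and 10 and 0 with spike-in scaling.

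With Wnt3a in untransfected cells, 7 of 17 other mesenchymal genes were called, all higher, beside 5.6% of all genes, with a median of 0.31 beside 0.01 for all genes. FAP, a fibroblast protease, rose by 1.78, MMP2, a matrix metalloproteinase, by 1.34, and SPARC, a matrix glycoprotein, by 0.85. Of 11 tested Wnt feedback genes 5 were called, all higher, with TCF7 at 1.68 and LEF1 at 1.12. With spike-in scaling 1 mesenchymal and 1 feedback gene were called. Without Wnt3a replicate 2 the counts were 3 and 3, and they were 7 and 5 without Wnt3a replicate 3.

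After control siRNA, Wnt3a raised 4 of 17 mesenchymal genes and 5 of 11 feedback genes, beside 2.11% of all genes called. Without control siRNA replicate 3 these counts were 2 and 1, 3 and 3 without control siRNA with Wnt3a replicate 2, and 1 and 2 with spike-in scaling. After β-catenin siRNA limma called 0 mesenchymal and 0 feedback genes, with 7 and 1 at an unadjusted p under 0.05, beside 0.0406% of all genes. The test of a difference in Wnt3a response between the siRNAs called 0 mesenchymal genes by limma, 1 at an unadjusted p under 0.05. It called 1 feedback gene, lower, and the median of the feedback genes was -0.52. Of these 11 genes 6 were at an unadjusted p under 0.05, beside 822 of 24648 for all genes. With spike-in scaling limma called 0 feedback genes, 5 at an unadjusted p under 0.05. By the adjusted p, the responses of most genes of both lists were not shown to differ.

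With FZD8_CRD, Wnt3a raised 10 of 17 mesenchymal genes, beside 8.29% of all genes called, and 4 with spike-in scaling or 10 without FZD8_CRD replicate 3, with a median of 0.56 beside 0.02 for all genes. FAP was at 2.01, POSTN, a matrix protein, at 1.99, and TAGLN, an actin-binding protein of smooth muscle, at 1.97. Of the feedback genes 2 rose and 2 fell, with 2 and 0 without FZD8_CRD replicate 1 or replicate 2, 2 and 3 without replicate 3, and 1 and 1 with spike-in scaling. β-catenin siRNA with Wnt3a lowered 8 of 11 feedback genes, beside 10.6% of all genes called, and 4 with spike-in scaling, with RNF43, a ligase that removes Wnt receptors, at -1.89. Of the mesenchymal genes it lowered 4 and raised 1, with TAGLN at -1.57 and FAP at -1.31, the FAP call being lost without control siRNA with Wnt3a replicate 1 (-1.19). With spike-in scaling 3 mesenchymal genes were called in place of 5.

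The genes whose signals followed each member most closely over the 24 arrays, by Pearson r as a description, were TSPAN14 (0.91), RTN4RL1 (0.90) and TECTB (0.90) for SNAI1, RUBCNL (0.93) and LCP1 (0.92) for SNAI2 and PIAS3 (0.91), TNS4 (0.88) and CACNB1 (0.88) for TWIST1. For ZEB1 they were NR2F1-AS1 (0.94), ZZZ3 (0.93) and BCL2 (0.92), and for ZEB2 TLR6 (0.87), SEPTIN3 (0.86) and SMARCA4 (0.83). For the mesenchymal products they were NID2 (0.96), RRAD (0.95) and SSR1 (0.95) for VIM, COL1A2 (0.91), LRRC15 (0.90) and IHH (0.90) for FN1 and BOLA3 (0.96), SLC41A3 (0.96) and GSTM4 (0.95) for S100A4. The arrays share slides and groups, and the correlations carry no test.

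Promoter windows of 300 bases from RefSeq (GRCh38.p14) that span a gene's start matched 7 of 10 members with 13 windows, and SNAI1 and TWIST1 had no match. Member windows on the chromosome of SNAI2 were left out of the search, so SNAI2 could not match. The shares of all windows below include that chromosome. The box CACCTG, read on both strands and also a form of the E-box CANNTG, is a known binding word of Snail and ZEB proteins, and 20.6% of 35116 windows hold it, as do 3 of the members' windows. CANNTG is in 68.7% of all windows and in 6 of the members'. The TCF/LEF words CTTTGAA and CTTTGAT, read on both strands, are in 4.43% and 2.62% of all windows and in 0 and 0 of the members'. ZEB1, called in 4 of 12 comparisons, and S100A4, called in 6, are the only members with CACCTG in a matched window. VIM and FN1, each called in 6, have none, so the box does not set apart the members that were called. Most of the 13 windows belong to ZEB1. The ZEB1 window with the most boxes and the S100A4 window are shown, with CACCTG or its reverse complement in capitals. That of ZEB1 lies at chr10:31318966-31319265 (+ strand) with 3 boxes, and that of S100A4 at chr1:153545757-153546056 (- strand) with 1. A match describes letters and shows no binding.
ZEB1: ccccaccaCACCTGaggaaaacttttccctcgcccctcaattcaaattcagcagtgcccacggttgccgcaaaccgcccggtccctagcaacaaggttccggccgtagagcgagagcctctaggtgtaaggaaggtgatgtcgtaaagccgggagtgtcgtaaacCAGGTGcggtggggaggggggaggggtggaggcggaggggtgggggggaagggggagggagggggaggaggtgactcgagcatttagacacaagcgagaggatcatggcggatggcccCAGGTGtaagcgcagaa
S100A4: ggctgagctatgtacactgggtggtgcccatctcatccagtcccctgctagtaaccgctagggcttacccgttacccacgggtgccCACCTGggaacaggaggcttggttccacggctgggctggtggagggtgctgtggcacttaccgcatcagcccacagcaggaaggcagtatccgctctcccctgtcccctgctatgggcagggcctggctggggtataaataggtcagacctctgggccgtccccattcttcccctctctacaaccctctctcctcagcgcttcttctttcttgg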

How the data were processed

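Total RNA of HepaRG cells was hybridised to 24 Agilent one-colour arrays. Per the file headers, the deposited intensity values are linear spot signals, background-subtracted by Feature Extraction (10.7.1.1 in the headers, 10.7.3.1 in the submitters' notes) and not scaled from array to array. The authors' own deposited log2 table of 25443 probes served as an alternative. Its columns had medians of -0.05 to 0.019 and followed the scanner values, centred on each probe, with the same direction.

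Signals were divided by the 75th percentile of each array, set to a floor of -6.13 on the log2 scale and converted to log2, without outlier spots. A probe was kept if well above background on all 3 arrays of a group, and the brightest kept probe stood for a gene. RefSeq transcripts gave symbols to 28174 of 50683 probes. The means of 8 groups were fitted over 24648 genes with limma 3.58.1 in R 4.3.3 (eBayes with trend, two-sided), and 41 missing values were dropped gene by gene. A call is a Benjamini-Hochberg adjusted p under 0.05 over all genes. The number of arrays limits the precision. The fit was tested on simulated data.

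The members and gene lists were chosen with earlier results of these data known. Genes named are the members, CTNNB1, AXIN2, cell type markers, up to 6 called genes per list and comparison with the largest changes, and the 3 genes nearest to each called member, of which 1 is not reported here. From the list genes so allowed, those printed were picked with their values in view. Alternatives were quantile normalization, scaling to 7 spike-in probes, the deposited log2 values, no filter, normexp (offset 50) on the median signal, the mean of the probes, the slide as a block, only the compared groups, the study's thresholds, and leaving out arrays. Leaving out both arrays that stood apart was added after seeing the data.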

Additional observations from a re-analysis of the deposited data

How the results depend on the processing

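Limma called 31 pairs of member and comparison, of which 3 held in every alternative run, and 17 other pairs were called in at least 1 alternative. Over these pairs 725 alternative values kept direction and side of the threshold, 142 lost the call, 41 gained it and 4 changed sign. The causes were not tested. The losses named beside a member are not a full list of the alternatives that lost its call.

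With scaling to the spike-ins TWIST1 and TWIST2 changed sign for FZD8_CRD without Wnt3a, to -0.028 and -0.23. Averaging probes turned ZEB1 to -0.055 for FZD8_CRD with Wnt3a and -0.026 for control siRNA with Wnt3a. The higher share of all calls went from 53.4% to 8.54% (Wnt3a without transfection), 51.7% to 96.4% (Wnt3a after control siRNA), 52.5% to 68.9% (Wnt3a with FZD8_CRD), 38.6% to 5.9% (β-catenin siRNA with Wnt3a), 54.9% to 7.71% (control siRNA without Wnt3a), 47% to 7.55% (FZD8_CRD without Wnt3a), 49% to 28.8% (FZD8_CRD with Wnt3a) and 27.8% to 85.7% (the difference with FZD8_CRD) with the spike-ins, from 27.8% to 50% (the difference with FZD8_CRD) with quantile normalization and from 90% to 62.5% (Wnt3a after β-catenin siRNA) and 27.8% to 40% (the difference with FZD8_CRD) with the deposited values.

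Members called, where the count moved by over 1.5 times, were 0 for Wnt3a with FZD8_CRD, Wnt3a without transfection and β-catenin siRNA without Wnt3a, 1 for Wnt3a after control siRNA and control siRNA without Wnt3a and 3 for FZD8_CRD with Wnt3a and FZD8_CRD without Wnt3a with spike-in scaling, 1 for β-catenin siRNA without Wnt3a with quantile normalization, 1 for Wnt3a after control siRNA and β-catenin siRNA without Wnt3a and 2 for Wnt3a without transfection with no filter, 2 for Wnt3a without transfection with averaged probes, 0 for Wnt3a with FZD8_CRD and Wnt3a without transfection and 4 for β-catenin siRNA without Wnt3a with only the compared groups, 1 for Wnt3a after β-catenin siRNA, Wnt3a after control siRNA and the difference with FZD8_CRD and 3 for FZD8_CRD with Wnt3a at the study's thresholds, and 1 for control siRNA with Wnt3a and 3 for the difference with FZD8_CRD without both arrays that stood apart. With the replicate number (slide) as a block they were 1 for control siRNA with Wnt3a, 4 for β-catenin siRNA without Wnt3a and 5 for β-catenin siRNA with Wnt3a, and the block moved no other count of members by over 1.5 times. Of 84 same-numbered pairs of arrays, 82 deviated from their group means with a correlation over 0.1 (mean 0.38), and 24 of 24 arrays were closest to their own number, which is also their slide. Leaving out replicates or single arrays gave 0 to 4 for Wnt3a without transfection, 0 to 2 for Wnt3a after control siRNA, 0 to 5 for Wnt3a with FZD8_CRD, 0 to 3 for β-catenin siRNA without Wnt3a, 0 to 3 for β-catenin siRNA with Wnt3a, 0 to 4 for control siRNA without Wnt3a, 0 to 2 for control siRNA with Wnt3a, 3 to 5 for FZD8_CRD without Wnt3a, 3 to 7 for FZD8_CRD with Wnt3a and 0 to 3 for the difference with FZD8_CRD.

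Of all genes, the calls, with their lowest and highest count over alternatives with all arrays and then with arrays left out, were 1381 (2 to 2823, 6 to 6344) for Wnt3a without transfection, 520 (56 to 1329, 4 to 574) for Wnt3a after control siRNA, 10 (0 to 314, 0 to 96) for Wnt3a after β-catenin siRNA, 2044 (0 to 3298, 0 to 5328) for Wnt3a with FZD8_CRD, 2604 (172 to 4321, 474 to 2374) for β-catenin siRNA without Wnt3a, 2608 (661 to 3846, 588 to 2646) for β-catenin siRNA with Wnt3a, 5501 (1609 to 7913, 233 to 6876) for control siRNA without Wnt3a, 2227 (1 to 3754, 1 to 4045) for control siRNA with Wnt3a, 10322 (5516 to 13147, 6215 to 11229) for FZD8_CRD without Wnt3a, 9162 (2295 to 11950, 4107 to 10126) for FZD8_CRD with Wnt3a, 4 (0 to 140, 0 to 11) for the difference between siRNAs and 18 (0 to 731, 0 to 2989) for the difference with FZD8_CRD. The ranges with arrays left out cover single arrays and replicates. Leaving out both arrays that stood apart is not in them, and for Wnt3a with FZD8_CRD it gave more calls than the highest count listed. Signal over background limits PRRX1, which has no value, and the dim ZEB2 probes.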
